A study of Mus musculus with 36 samples.

Results

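The step from E10.5 to E11.5, day 10.5 to day 11.5 of mouse embryonic development, was read from 6 of the 36 messenger RNA arrays of the series, 3 arrays of E10.5 hearts and 3 of E11.5 hearts, chosen by their stage labels alone. In it, 8 of 21 expressed collagen genes and 7 of 34 other expressed matrix genes rose and none fell. Over all expressed genes, 2.14% were higher and 2.57% lower. Among those that rose were both chains of type I collagen, elastin, fibulin-5 and lysyl oxidase. Elastin and lysyl oxidase lost their calls when the 3′/5′ control difference, described below, entered the model. Of the other matrix calls, *Col9a3* was kept whichever array was left out. *Col6a1*, *Col6a3*, *Col9a1*, *Postn*, *Fbln2* and *Adamts19* were each lost in at least 1 such omission. *Col16a1*, *Col27a1* and *Bgn* were not among the genes checked in this way. The Wnt-binding protein *Sfrp2* rose most among expressed genes whose arrays did not overlap. None of the 34 expressed sarcomere genes, 28 cardiac transcription factors or 14 Notch genes passed the test. For lists of this size, 0 is near the shares over all expressed genes. All 6 samples were hearts of OF1 mice with no treatment or genetic change named, an outbred strain, and each was of mixed males and females because sex differentiation is incomplete at these ages. Per the study's methods, 3 pups were taken at each stage as biological replicates, each in a tube of its own, while the samples of these 2 ages are given as mixed in sex. Where tubes shared a litter, p-values measure only the spread between these samples. The remaining arrays covered each day from E12.5 to E19.5, young adults of 10 weeks and old adults.

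In this period the looped heart tube becomes a 4-chambered heart. Its muscle cells already contract, the inner wall grows ridges called trabeculae, and swellings filled with matrix, the endocardial cushions, are invaded by cells that later form valves and septa. The epicardium spreads over the surface, and the cells of the outflow tract begin to build the elastic walls of the great arteries. Elastic fibers consist of elastin laid on a microfibril scaffold, guided by fibulins and cross-linked by lysyl oxidases. Fibrillar collagens give tensile strength.

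The arrays carried 45101 probe sets, each a group of short probes for a transcript, and the deposited values were log2 intensities after robust multi-array average (RMA), a procedure that gives all arrays the same distribution. A difference of 1 on this scale is a 2-fold difference. Stage means were compared with limma, which fits a linear model to each probe set and steadies its variance with that of all others; all 36 arrays entered 1 model. Each gene below is read from 1 probe set, that with the highest mean over the 36 arrays. A gene counted as expressed when its mean was above 5 at E10.5 or at E11.5, so it can be counted through 1 stage alone. It counted as higher or lower when its adjusted p, by the Benjamini-Hochberg method over all probe sets, was under 0.05. The bulk hearts cannot tell a change in the number of cells of a type from a change in the RNA of each cell.

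The 6 arrays did not behave alike in their controls, and this touches every result that follows. The hybridization controls, bacterial transcripts added at fixed amounts to each labelled sample, averaged 9.68, 9.68 and 10.35 in E10.5 replicates 1, 2 and 3, and 10.35, 10.35 and 10.58 in E11.5 replicates 1, 2 and 3. E10.5 replicates 1 and 2 were the lowest of all 36 arrays, while E10.5 replicate 3 lay at the level of E11.5. The difference between 3′ and 5′ control probe sets of *Gapdh*, which grows when RNA is degraded or amplified from its 3′ end only, was 2.25, 2.19 and 3.95 at E10.5 and 3.74, 4.68 and 4.10 at E11.5. The same difference for *Actb* was 2.63, 2.38 and 3.58 at E10.5 and 3.36, 3.90 and 3.83 at E11.5. The poly-A controls, added to the total RNA, averaged 5.49, 5.49 and 6.32 at E10.5, and lay between 6.22 and 6.6 at E11.5. Replicates 1 and 2 of E10.5 thus stood apart from the other 4 arrays in each of the 4 controls. Between the stages the hybridization controls differed by 0.53 (exact two-sided permutation p = 0.1, the smallest that 3 against 3 arrays allow), and the *Gapdh* difference by 1.38 (exact permutation p = 0.2). Over all probe sets, E10.5 replicate 3 correlated with replicates 1 and 2 at r = 0.988 and 0.986, and with the 3 E11.5 arrays at 0.994, 0.992 and 0.991. No batch is named for these arrays. For many genes below, the value is therefore given also with the hybridization control level as a covariate, or from E10.5 replicate 3 alone against the 3 E11.5 arrays. In the latter, 1 array stands for E10.5 and is assumed to vary like the arrays of the other stages, so a call from it is no replicate check.

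**Figure D1:**
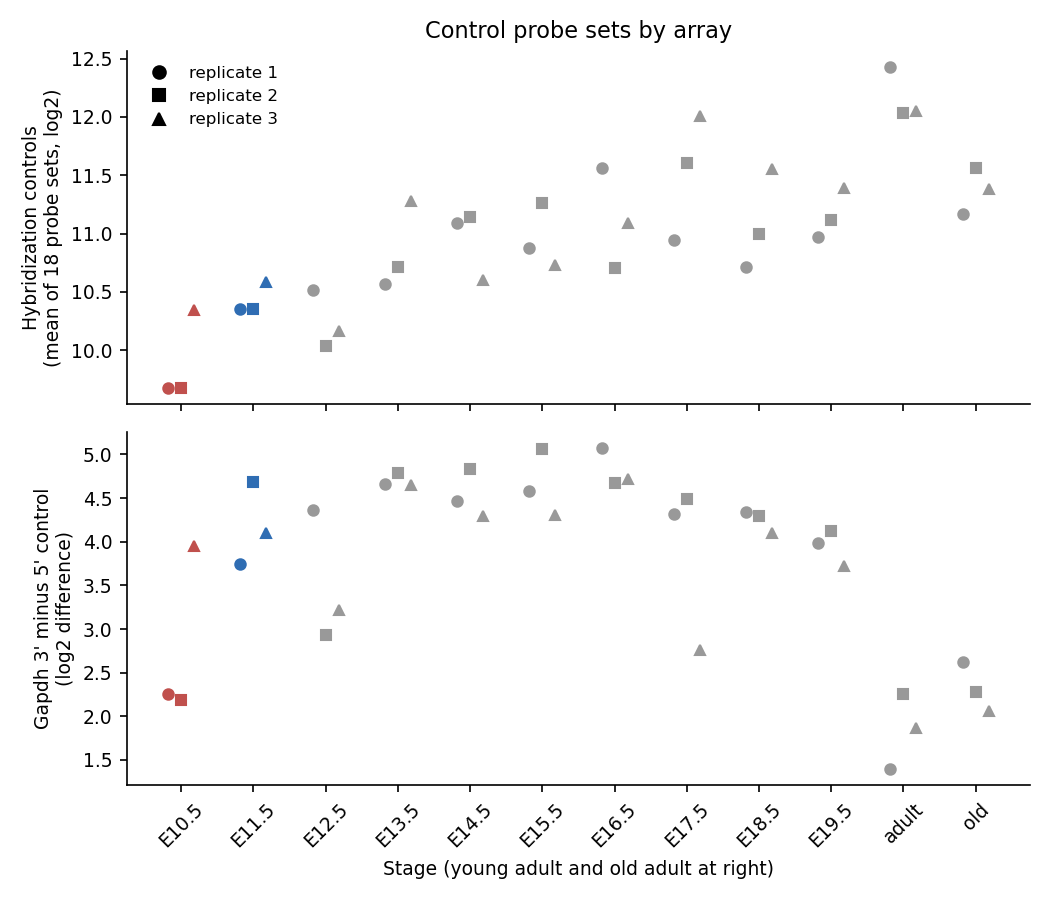
Level of the hybridization controls (top, log2, mean of 18 probe sets) and the log2 difference between the 3′ and 5′ control probe sets of Gapdh (bottom), 1 point per array, over the 12 stages; E10.5 is red, E11.5 blue, and the symbol gives the replicate. E10.5 replicates 1 and 2, at 9.68 each, lie below the lowest array of the other 10 stages (10.03), and E10.5 replicate 3, at 10.35, lies at the level of E11.5.

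Of 9719 expressed genes, 208 (2.14%) were higher and 250 (2.57%) lower at E11.5, and 60 and 61 of these changed 2-fold or more. The arrays of the stages did not overlap for 206 of the higher and 205 of the lower genes. Over all expressed genes, the 3 E11.5 arrays all lay above the E10.5 arrays for 14.2% and all below for 19.9%. The median log2 fold change of expressed genes was −0.07. With the hybridization control level as a covariate it was 0.04, and 157 (1.62%) genes were higher and 65 (0.669%) lower, of which 105 and 60 were among the 208 and 250. Read over all probe sets of a gene, 241 genes (1.16% of 20701) were higher and 463 (2.24%) lower, so that 34.2% of the calls were higher. Median centring gave 267 and 344 (43.7% higher) and quantile renormalization of all 36 arrays 227 and 202 (52.9% higher), so the balance of rises and falls depended on scaling. It also depended on single arrays: without E10.5 replicate 3 there were 652 higher and 1681 lower genes, and without E10.5 replicate 2 there were 54 and 19. With the 3′/5′ difference as a covariate, an alternative chosen after the data were seen, 25 were higher and 2 lower. Of 80 named genes that passed, 25 kept their call when any 1 of the 6 arrays was left out; 21 of them were higher and 4 lower. Of the 80, 53 lost their call without E10.5 replicate 1, 54 without E10.5 replicate 2, 50 without E11.5 replicate 2, 45 without E11.5 replicate 3 and 2 without E11.5 replicate 1, while all 80 kept it without E10.5 replicate 3. With the hybridization covariate, 34 of the 80 lost their call. Genes said below to have risen or fallen passed without covariate and with all arrays. The 25 were *Sfrp2*, *Fbln5*, *Iigp1*, *Nfix*, *Penk*, *Eln*, *Mgp*, *Spint2*, *Dnm3os*, *Lox*, *Dlg2*, *Col1a1*, *Col1a2*, *Col9a3*, *Ndrg1*, *Nfia*, *Kcna4*, *Mylk*, *Inhba*, *Csf1r* and *Cpt1a*, which were higher, and *Mylpf*, *Trim71*, *Rrp15* and *Bmp5*, which were lower.

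The rises and the falls differed in where E10.5 replicate 3 stood. It lay nearer to the E11.5 mean than to the mean of replicates 1 and 2 for 32.7% of the higher genes, 67.6% of the lower genes and 67.7% of all expressed genes. The median log2 fold change of the higher genes was 0.80, and 0.55 from E10.5 replicate 3 alone. For the lower genes the median was −0.86, and −0.42 from E10.5 replicate 3 alone.

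Several of the 12 largest rises belonged to secreted proteins of the matrix. *Sfrp2*, which binds Wnt ligands outside the cell, measured 3.34, 3.29 and 3.55 in the E10.5 arrays and 6.63, 7.36 and 6.39 in the E11.5 arrays. All 3 arrays of E10.5, replicate 3 included, lay near the bottom of the scale. The log2 fold change was 3.40 (SE 0.51, limma adjusted p 0.00027), or 10.6-fold, and 4.09 with the hybridization covariate. *Fbln5*, fibulin-5, which links elastin to microfibrils and to cells, measured 4.06, 4.07 and 4.06 at E10.5 and 6.82, 8.12 and 7.25 at E11.5. It rose 10.1-fold (log2 3.33, SE 0.33, limma adjusted p 3.7e-07), and by the same 3.33 from E10.5 replicate 3 alone. *Eln*, elastin, went from 4.62, 4.69 and 4.58 to 6.06, 7.13 and 6.92, a 4.21-fold rise (log2 2.08, SE 0.31, limma adjusted p 0.00025). *Lox*, the lysyl oxidase that cross-links elastin and collagen, measured 4.11, 4.68 and 4.97, and then 6.11, 6.55 and 6.0 (3.11-fold, limma adjusted p 0.0013). *Mgp*, matrix Gla protein, an inhibitor of calcification, measured 3.72, 4.19 and 3.56, and then 5.49, 5.85 and 5.93 (3.82-fold, limma adjusted p 0.00027). The E10.5 means of these 5 genes were under 5, the level the study's methods took as expressed, so their folds are measured from the low end of the scale. All 5 kept their call whichever array was left out. With the 3′/5′ covariate *Sfrp2*, *Fbln5* and *Mgp* passed, and *Eln* (limma adjusted p 0.054) and *Lox* (limma adjusted p 0.25) did not.

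The study's methods set stricter limits: a log2 fold change above 2 in either direction with an adjusted p under 1e-05, and any of the 12 stage means above 5. They were met by 3 genes (0.0145% of 20701), all higher: *Fbln5*, *Nfix* and *Ogn*. *Ogn*, the small leucine-rich proteoglycan osteoglycin, is named because of this count and was chosen after its values were seen. It measured 2.42, 2.56 and 2.76 at E10.5 and 4.75, 4.78 and 5.13 at E11.5, so that its means of 2.58 and 4.89 were both under 5 in this step.

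Of 29 collagen genes on the list, 21 were expressed, 8 rose and 0 fell. Their median log2 fold change was 0.49, and 0.74 with the hybridization covariate, under which 8 were higher. The shares over all expressed genes were 2.14% higher and 2.57% lower without covariate. *Col1a1* and *Col1a2* encode the chains of type I collagen, the main fibrillar collagen. *Col1a1* measured 6.51, 6.67 and 7.39 at E10.5 and 8.18, 8.66 and 8.49 at E11.5 (3.01-fold, limma adjusted p 3.2e-05), and its E10.5 replicate 3 stood between the other E10.5 arrays and E11.5. *Col1a2* measured 8.64, 8.90 and 8.84, and then 10.05, 10.41 and 10.18 (2.68-fold, limma adjusted p 0.00027), with E10.5 replicate 3 among its fellows. In the other expressed probe set the log2 fold change was 0.76 for *Col1a1*, against 1.59, and 1.61 for *Col1a2*, against 1.42. *Col3a1*, the fibrillar collagen of vessel walls, measured 10.91, 10.96 and 11.02, and then 11.56, 11.82 and 11.63, without overlap, but its difference of 0.71 did not pass (limma adjusted p 0.10). Type VI collagen, which forms beaded filaments, rose in *Col6a3* (log2 1.45) and *Col6a1* (1.02). The E10.5 mean of *Col6a3* was 4.45, so it counted as expressed through E11.5 alone. Type IX collagen, known from cartilage, rose in *Col9a1* (1.34) and *Col9a3* (1.28), whose other expressed probe sets measured 0.57 and 0.63. *Col16a1* (0.91) and *Col27a1* (0.90) completed the 8. *Col4a1* and *Col4a2*, the basement membrane collagens, measured −0.18 and −0.21 and did not pass. *Col1a1*, *Col1a2* and *Col9a3* kept their call whichever array was left out. *Col6a1* lost it without E10.5 replicate 1 (log2 0.87 to 1.26 over the 6 omissions) or replicate 2. *Col9a1* lost it without either of them or E11.5 replicate 2, and *Col6a3* without any of these 3 or E11.5 replicate 3.

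**Figure D2:**
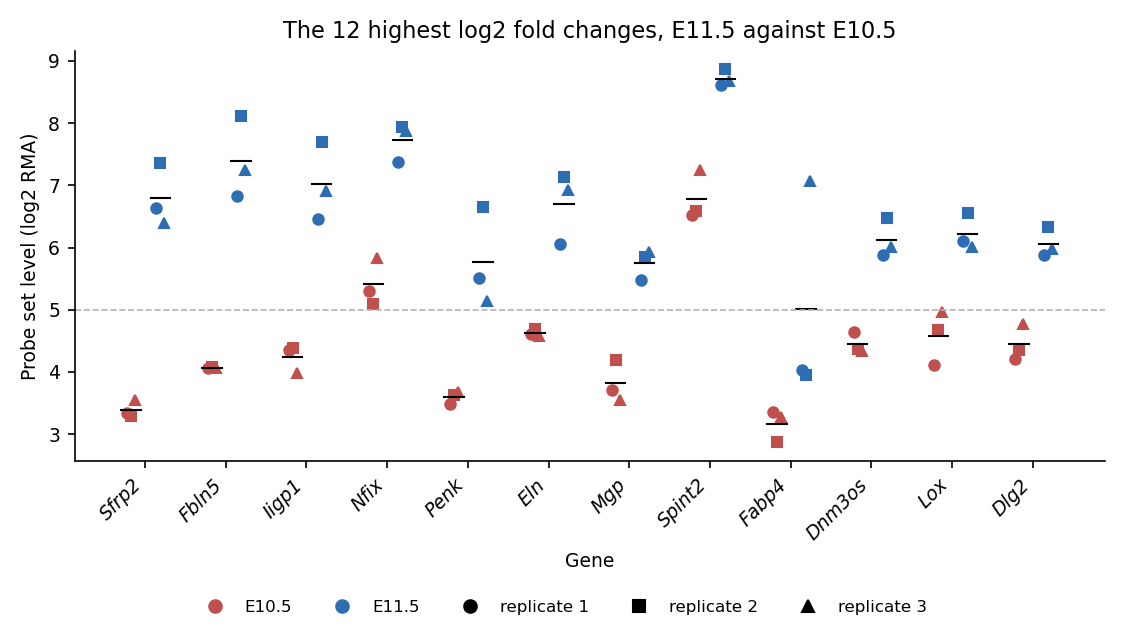
Level (log2 RMA) of the 12 genes with the highest log2 fold changes among passing genes whose arrays do not overlap, 1 point per array; E10.5 is red and E11.5 blue, the symbol gives the replicate, the bar is the mean of 3 arrays, and the dashed line marks the expression limit of 5. Fbln5 sits at 4.06 to 4.07 in the E10.5 arrays and at 6.82 to 8.12 in the E11.5 arrays, while the mean of Fabp4 at E11.5 is set by 1 array at 7.07.

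Among 38 genes of matrix proteins and their remodelling, 34 were expressed, 7 rose and 0 fell, with a median of 0.27 (0.55 with the hybridization covariate). Beyond *Fbln5*, *Eln* and *Lox* these were *Adamts19*, a secreted protease (log2 1.3; 0.99 and not passing with the hybridization covariate, 0.72 from E10.5 replicate 3 alone), *Postn*, periostin (1.14), *Fbln2*, fibulin-2 (0.91), and *Bgn*, the proteoglycan biglycan (0.81). Among all expressed genes, 2.14% rose and 2.57% fell. *Fbln5*, *Eln*, *Lox* and *Adamts19*, with E10.5 means of 4.07, 4.63, 4.59 and 4.34, counted as expressed through E11.5 alone. *Adamts19* and *Fbln2* lost their call without either of E10.5 replicates 1 and 2 or E11.5 replicates 2 and 3. *Postn*, a matrix protein known from valve cushions, measured 10.02, 9.98 and 10.30 at E10.5 and 11.22, 11.38 and 11.14 at E11.5. It was already well expressed and rose 2.21-fold (limma adjusted p 0.0094), a call that was lost without E10.5 replicate 1, E10.5 replicate 2 or E11.5 replicate 2. *Fn1*, fibronectin, and *Fbln1*, fibulin-1, did not pass, at −0.24 and −0.27. Of 24 genes of valve and cushion matrix, which overlap with both lists, 20 were expressed, 5 rose and 0 fell, with a median of 0.39. *Vcan*, versican, and *Hapln1*, the link protein that ties it to hyaluronan, make up the cardiac jelly of the cushions. They measured 0.17 and −0.30 and did not pass, and *Has2*, the enzyme that makes hyaluronan, measured −0.57 (limma adjusted p 0.19).

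Letters of 3 promoters are shown because their genes rose together here, and *Sfrp2*, *Fbln5* and *Col1a2* are the most strongly changed secreted proteins and collagen in the RefSeq promoter table. Each line gives the 250 bases before the annotated start in build GRCm38.p6, 5′ to 3′ on the gene's strand. Capitals mark any of 4 motifs on either strand. The TATA box was searched as TATAAA. The CCAAT box was searched under its own letters. The binding half-site of nuclear factor I (NFI) proteins was searched as TTGGC. The site of TEAD factors was searched as GGAATG. The NFI motif shares letters with the reverse complement of the CCAAT box where ATTGGC occurs. *Sfrp2* lies at chr3:83766071-83766320 (+), *Fbln5*, of which the first of 2 listed starts was taken, at chr12:101819120-101819369 (−), and *Col1a2* at chr6:4505368-4505617 (+).
Sfrp2: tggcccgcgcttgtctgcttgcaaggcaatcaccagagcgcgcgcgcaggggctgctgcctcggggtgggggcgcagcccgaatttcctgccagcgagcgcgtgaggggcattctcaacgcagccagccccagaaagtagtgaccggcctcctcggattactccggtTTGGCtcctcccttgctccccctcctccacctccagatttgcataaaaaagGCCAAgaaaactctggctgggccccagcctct
Fbln5: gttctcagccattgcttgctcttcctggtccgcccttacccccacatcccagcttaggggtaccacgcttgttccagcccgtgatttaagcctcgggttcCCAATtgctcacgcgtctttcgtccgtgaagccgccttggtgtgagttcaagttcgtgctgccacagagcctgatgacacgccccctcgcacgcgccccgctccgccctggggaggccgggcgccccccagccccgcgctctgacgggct
Col1a2: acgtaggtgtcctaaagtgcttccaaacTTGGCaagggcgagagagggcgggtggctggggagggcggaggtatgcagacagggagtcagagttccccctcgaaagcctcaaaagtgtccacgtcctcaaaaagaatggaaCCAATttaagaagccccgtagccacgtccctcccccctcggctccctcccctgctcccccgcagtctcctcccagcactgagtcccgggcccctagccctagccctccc
TTGGC occurred at 2 places in the *Sfrp2* stretch and at 1 in that of *Col1a2*, and CCAAT at 1 place in those of *Fbln5* and *Col1a2*. TATAAA and GGAATG occurred in none of the 3. Of 27025 promoters of the same length, 1 per gene, 41.9% held TTGGC, 34.5% CCAAT, 13.0% TATAAA and 12.6% GGAATG. The GC content was 63.6% for *Sfrp2*, 65.2% for *Fbln5* and 62% for *Col1a2*, and 53% over all promoters.

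The NFI transcription factors, which bind TTGGC half-sites as dimers and act in late differentiation of many tissues, rose as a family. *Nfix* measured 5.30, 5.10 and 5.83 at E10.5 and 7.38, 7.94 and 7.88 at E11.5. The 2 stages lay well apart, with E10.5 replicate 3 the highest of its stage. The rise was 5.00-fold (log2 2.32, SE 0.19, limma adjusted p 1.1e-08), and its log2 value was 2.07 with the hybridization covariate and 1.90 from E10.5 replicate 3 alone. Its 2 other expressed probe sets were higher too, by smaller differences. *Nfia* went from 7.48, 7.27 and 8.38 to 8.77, 9.14 and 9.29 (log2 1.36), *Nfic* from 7.97, 7.86 and 8.78 to 9.19, 9.32 and 9.38 (1.09), and *Nfib* from 8.50, 8.63 and 8.78 to 9.37, 9.53 and 9.43 (0.81). For *Nfia* and *Nfic*, E10.5 replicate 3 lay closer to E11.5 than to its fellows, and from it alone the differences were 0.69 and 0.52. All 4 passed, also with the hybridization covariate, at 0.98, 0.71 and 0.98 for *Nfia*, *Nfic* and *Nfib*. *Nfic* lost its call without any of 4 of the arrays and *Nfib* without E10.5 replicate 1. The 3 besides *Nfix* were chosen after their values were seen.

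*Dnm3os*, a long non-coding RNA, is the precursor of the microRNAs miR-199a and miR-214, which are known from connective tissue and muscle. It measured 4.64, 4.38 and 4.33 at E10.5 and 5.89, 6.47 and 6.01 at E11.5, a 3.20-fold rise (log2 1.68, SE 0.27, limma adjusted p 0.00052; 1.98 with the hybridization covariate). All 3 arrays of E10.5, replicate 3 included, lay below those of E11.5. With the 3′/5′ covariate *Dnm3os* did not pass (limma adjusted p 0.066). In the RefSeq annotation it holds the hairpins of *Mir199a-2* and *Mir214* on its own strand. The array reads the host transcript, and the levels of the microRNAs themselves were not analysed here. The mature sequences from RefSeq (GRCm38.p6) are shown because they are the products of the transcript that rose, with the seed, bases 2 to 8 from the 5′ end, in capitals. miR-199a-5p lies at chr1:162217844-162217866 (+), miR-199a-3p at chr1:162217883-162217904 (+), miR-214-5p at chr1:162223397-162223418 (+) and miR-214-3p at chr1:162223438-162223459 (+).
mmu-miR-199a-5p: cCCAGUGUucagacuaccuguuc
mmu-miR-199a-3p: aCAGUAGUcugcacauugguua
mmu-miR-214-5p: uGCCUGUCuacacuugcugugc
mmu-miR-214-3p: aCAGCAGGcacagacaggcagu
The 4 seeds differ from each other. miR-199b-3p of chromosome 2 has the same mature sequence as miR-199a-3p, and its hairpin lies within *Dnm1* on the opposite strand. *Dnm1*, a dynamin, measured 4.96, 4.87 and 5.34 and then 5.88, 6.16 and 5.69 (log2 0.86, limma adjusted p 0.013), a call that was lost with the hybridization covariate (limma adjusted p 0.053). Over the annotation, 408 expressed genes held at least 1 of 1005 hairpins, and 15 of them (3.68%) rose and 6 (1.47%) fell, against 2.14% and 2.57% of all expressed genes. *Dnm3os* and *Dnm1* were chosen among these after their values were seen. *Meg3*, an imprinted non-coding RNA that holds *Mir770*, went from 10.27, 10.27 and 11.05 to 11.20, 11.54 and 11.33 (log2 0.83, limma adjusted p 0.018). E10.5 replicate 3 lay near E11.5, the difference from it alone was 0.31, and the call was lost with the hybridization covariate (limma adjusted p 0.089).

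Other genes with large rises had varied roles. *Iigp1*, an interferon-inducible GTPase, measured 4.35, 4.38 and 3.98 at E10.5 and 6.46, 7.70 and 6.92 at E11.5 (6.90-fold, limma adjusted p 0.00012). *Penk*, the precursor of enkephalin peptides, measured 3.48, 3.63 and 3.68, and then 5.50, 6.66 and 5.14 (4.49-fold, limma adjusted p 0.00016). *Spint2*, an inhibitor of membrane serine proteases, measured 6.53, 6.58 and 7.25, and then 8.61, 8.87 and 8.67 (3.81-fold, limma adjusted p 1.4e-08). The other expressed probe set of *Spint2* had a log2 fold change of 0.74, against 1.93. *Iigp1* and *Penk* were near the bottom of the scale at E10.5, whereas *Spint2* was expressed in all 6 arrays. With the 3′/5′ covariate *Iigp1* and *Spint2* passed, and *Penk* did not (limma adjusted p 0.051). *Dlg2*, a scaffold protein of membranes, rose 3.07-fold, and *Inhba*, the subunit of activin A, 2.30-fold from 6.72, 6.45 and 6.78 to 7.69, 7.97 and 7.90 (limma adjusted p 3.2e-06). From E10.5 replicate 3 alone, the values of *Inhba* and *Spint2* were 1.07 and 1.47. *Fabp4*, a fatty acid binding protein of adipocytes and vessel walls, measured 3.35, 2.87 and 3.28, and then 4.04, 3.96 and 7.07. Its rise of 1.85 rested on E11.5 replicate 3: without it the log2 fold change was 0.83, and the call was lost.

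The falls were more even in size and less firm. Among lower genes whose arrays did not overlap, the lowest value was that of *Mylpf*, the regulatory myosin light chain of fast skeletal muscle, which measured 7.57, 7.28 and 6.63 at E10.5 and 5.89, 4.93 and 5.63 at E11.5. It fell by 1.68 on the log2 scale, or 3.19-fold (SE 0.20, limma adjusted p 7.8e-06), and by 1.55 with the hybridization covariate. *Trim71*, an RNA-binding ubiquitin ligase of early embryos and a target of let-7, went from 6.63, 6.36 and 6.08 to 5.16, 4.81 and 4.91 (2.64-fold lower, limma adjusted p 0.00027; log2 −1.57 with the covariate). *Rrp15*, a ribosomal RNA processing factor, went from 5.46, 5.41 and 5.22 to 4.34, 3.97 and 3.92 (2.44-fold lower, limma adjusted p 1.3e-06). *Bmp5*, a ligand of bone morphogenetic protein receptors, went from 7.83, 7.89 and 7.95 to 7.22, 6.83 and 6.53 (2.04-fold lower, limma adjusted p 0.00041). In *Bmp5* and *Rrp15* E10.5 replicate 3 stood with its fellows. These 4 kept their call whichever array was left out. From E10.5 replicate 3 alone they measured −1.14 (*Mylpf*), −1.12 (*Trim71*), −1.14 (*Rrp15*) and −1.09 (*Bmp5*). *Mylpf* and *Rrp15* were the 2 lower genes that passed also with the 3′/5′ covariate.

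In all of the 12 lowest genes, *Mylpf*, *Trim71* and *Rrp15* included, E10.5 replicate 3 was the lowest array of its stage. *Rnd2*, a small GTPase, measured 8.12, 8.48 and 6.10 at E10.5 and 6.04, 6.03 and 6.09 at E11.5. Here E10.5 replicate 3 was at the E11.5 level, and the difference was −1.51 over all arrays and −0.05 from that array alone. *Msmo1*, a sterol oxidase of cholesterol synthesis, measured 7.27, 7.43 and 5.92, and then 5.77, 4.80 and 5.42 (log2 −1.54, limma adjusted p 0.012; −0.59 from E10.5 replicate 3 alone). *Fdps*, which makes farnesyl diphosphate on the same pathway, measured 5.39, 5.62 and 4.23, and then 3.76, 3.69 and 3.49 (log2 −1.44, limma adjusted p 0.0019; −0.59 from E10.5 replicate 3 alone). *Gpd1l*, a glycerol phosphate dehydrogenase, and *Vnn1*, a pantetheinase, measured −1.52 and −1.35 and passed also with the hybridization covariate. *Tubb4b*, a beta tubulin, *Esco2*, which acetylates cohesin, and *Aldh1a1*, a retinaldehyde dehydrogenase, measured −1.30, −1.38 and −1.26 and lost their call with it. *2010204K13Rik*, a gene known only by its clone name, measured −1.43. Without E10.5 replicate 2, each of these 9 genes, all but *Mylpf*, *Trim71* and *Rrp15*, lost its call.

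**Figure D3:**
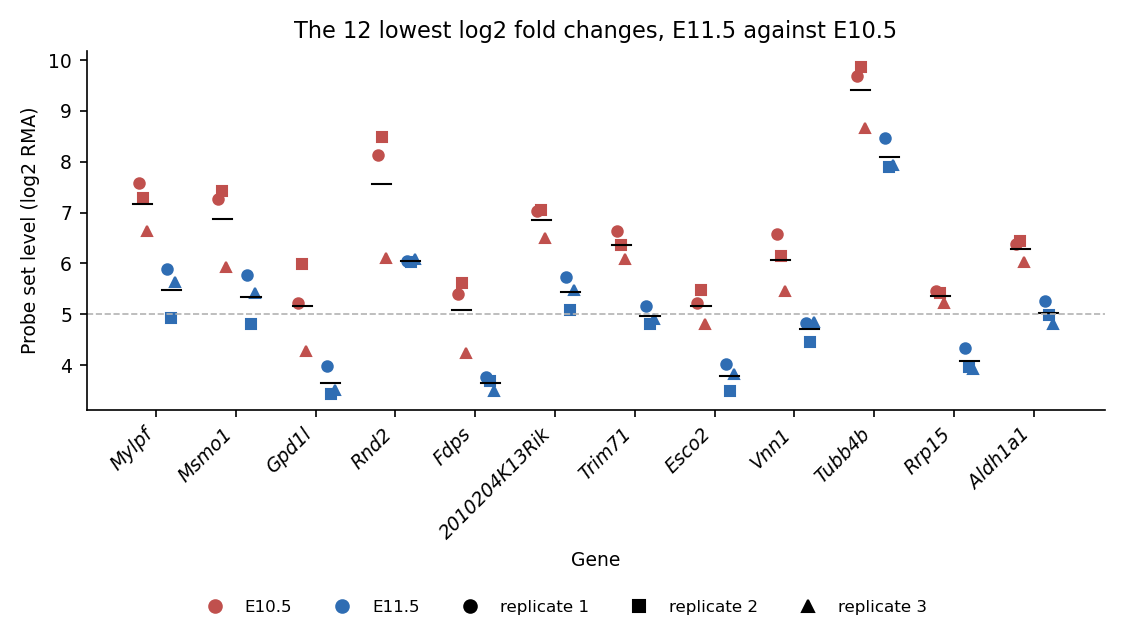
Level (log2 RMA) of the 12 genes with the lowest log2 fold changes among passing genes whose arrays do not overlap, 1 point per array; colors, symbols, bars and the dashed line are as in the plot of the 12 highest. In Rnd2 the E10.5 replicate 3 (6.10) sits at the E11.5 level, while in Rrp15 all 3 E10.5 arrays (5.22 to 5.46) sit together above E11.5.

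Genes of cell division showed small differences, mostly negative. Of 25 expressed genes of DNA replication, 24 had a negative log2 fold change, 18 had all E11.5 arrays below E10.5, 6 fell and 0 rose, with a median of −0.47. Over all expressed genes, 19.9% had all E11.5 arrays below E10.5, 2.57% fell and the median was −0.07. The 6 were *Cdc6* (−1.23), which loads the replicative helicase, *Ccne2* (−0.96), cyclin E2, *Uhrf1* (−0.94), which keeps DNA methylation, *Pcna* (−0.93), the sliding clamp, *Gins2* (−0.76) and *Mcm5* (−0.71), both parts of the helicase complex. *Cdc6* measured 5.92, 5.90 and 4.88 at E10.5 and 4.60, 4.31 and 4.12 at E11.5, with E10.5 replicate 3 nearer to E11.5 (−0.54 from it alone, −1.04 with the hybridization covariate). *Mcm2*, another helicase subunit, measured 9.76, 9.99 and 9.83, and then 9.39, 9.41 and 9.10, and did not pass (−0.56, limma adjusted p 0.11). Of 25 expressed mitosis genes, 23 were negative, and *Kif20a*, a kinesin of cytokinesis (−1.18), and *Aurka*, the Aurora A kinase (−0.93), fell; the median was −0.55. *Cdc6*, *Ccne2*, *Uhrf1*, *Pcna*, *Gins2*, *Kif20a* and *Aurka* each lost their call without E10.5 replicate 1, E10.5 replicate 2 or E11.5 replicate 2. *Mki67*, the proliferation marker, measured −0.18 and *Cdk1*, the mitotic kinase, −0.58, and neither passed. With the hybridization covariate the medians were −0.31 for replication and −0.22 for mitosis, and 2 and 0 genes passed. From E10.5 replicate 3 alone they were −0.36 and −0.32. *Rb1*, the retinoblastoma protein that restrains entry into S phase, rose by 0.69 (limma adjusted p 0.019), while the cyclins *Ccnd1* and *Ccnd2* measured 0.10 and −0.07. The call of *Rb1* was lost without either of E10.5 replicates 1 and 2 or E11.5 replicates 2 and 3.

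Of 72 expressed respiratory chain genes, 59 were negative, 3 fell and 0 rose, and the median was −0.42. Among all expressed genes, 2.57% fell, 2.14% rose and the median was −0.07. *Atp5b*, the catalytic subunit of ATP synthase, measured 11.02, 11.13 and 9.74 at E10.5 and 9.90, 9.05 and 9.17 at E11.5. The stages overlapped, with E10.5 replicate 3 inside the E11.5 range. *Sdhd* (−1.11) and *Cox5a* (−1.06), subunits of complexes II and IV, overlapped too. The median turned to 0.09 with the hybridization covariate and was −0.09 from E10.5 replicate 3 alone, so the direction of this list flipped with the covariate. The median of all expressed genes was 0.04 and −0.03 in these 2 comparisons. Of 26 expressed genes of glycolysis and glucose use, 1 rose and 2 fell, with a median of −0.21. *Ldhb*, the heart subunit of lactate dehydrogenase, rose by 0.49, from 10.25, 10.30 and 10.47 to 10.82, 10.74 and 10.91, a call at the edge of the limit that was kept with the hybridization covariate (0.56) and lost without any of 5 arrays. *Ldha*, the other main subunit of that enzyme, and *Eno1*, an enolase, measured −1.14 and −0.80 and passed without the covariate only, and *Slc2a1*, the main glucose transporter of the embryo, measured 0.14. *Cpt1a*, the gate of fatty acid entry into mitochondria, rose 1.64-fold from 6.76, 6.72 and 6.55 to 7.48, 7.36 and 7.34 (limma adjusted p 0.0022), a call kept whichever array was left out.

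Of 9 expressed genes of the LIN28, HMGA and IGF2BP list, regulators of embryonic growth, 7 had all E11.5 arrays below E10.5, and *Trim71* and *Sall4* fell. The shares over all expressed genes were 19.9% with all E11.5 arrays below E10.5 and 2.57% lower. *Sall4*, a zinc finger factor of pluripotent and limb cells, measured 6.03, 6.24 and 5.10, and then 4.99, 4.29 and 4.60 (−1.17, limma adjusted p 0.016). With the hybridization covariate it measured −1.27 and passed. Its E10.5 replicate 3 lay nearer to E11.5 than to its fellows. The call of *Sall4* was lost without either of E10.5 replicates 1 and 2 or E11.5 replicates 2 and 3. *Hmga2* measured −0.37 and did not pass, and *Lin28a* and *Lin28b* were under 5 in both stages.

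**Figure D4:**
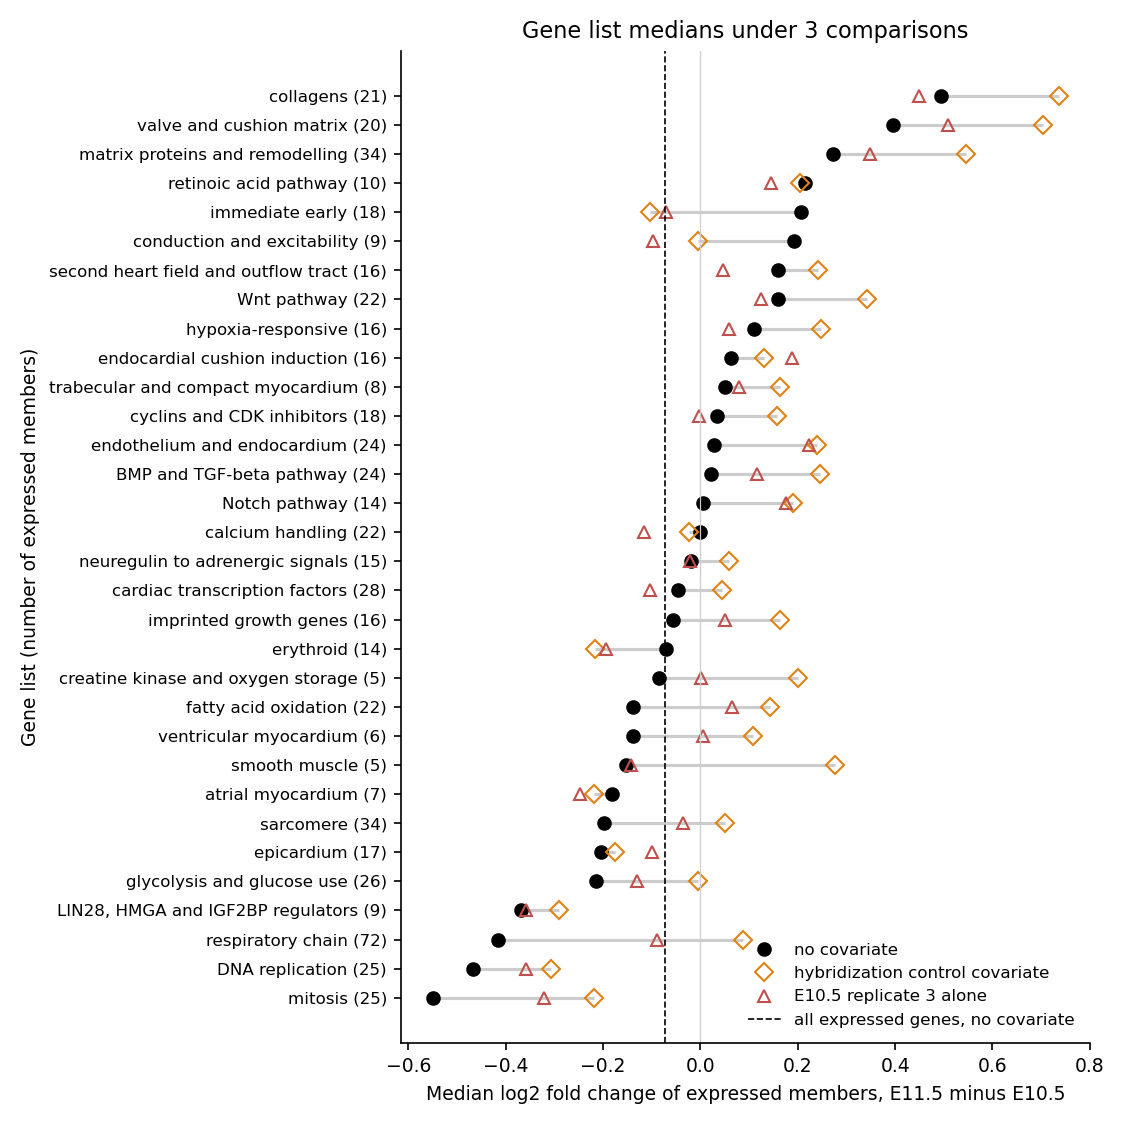
Median log2 fold change (E11.5 minus E10.5) of the expressed members of each list with at least 5 of them, number of members in parentheses; filled circles are without covariate, open diamonds with the hybridization control covariate, open triangles from E10.5 replicate 3 alone, and the dashed line is the median of all expressed genes (−0.07). The 3 matrix lists lie highest in all 3 comparisons (collagens 0.49, 0.74 and 0.45), while the respiratory chain moves from −0.42 to 0.09.

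On the sarcomere and myocardium lists no gene passed. For lists of this size that is near the shares over all expressed genes, 2.14% higher and 2.57% lower. Of 34 expressed sarcomere genes, 0 rose and 0 fell, with a median of −0.20 (0.05 with the hybridization covariate). *Myh7*, the embryonic ventricular myosin heavy chain, measured 13.35 in each of the E10.5 arrays and 13.44, 13.44 and 13.52 at E11.5. *Actc1*, cardiac actin, measured 13.86, 13.91 and 13.38, and then 13.39, 13.03 and 13.21. Both are close to the top of the scale, where differences can be compressed. *Acta1*, skeletal actin, had the lowest value of the list, −1.38 (limma adjusted p 0.15). Of 7 expressed atrial, 6 ventricular and 8 trabecular or compact myocardium genes, none passed. *Myl7* and *Myl4*, the atrial light chains, measured −0.56 and −0.58, *Myl2*, the ventricular light chain, −0.16, and *Nppa* and *Nppb*, the natriuretic peptides, −0.22 and −0.55. The other expressed probe set of *Myl4* measured 0.23.

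Of 28 expressed cardiac transcription factors, 0 passed in limma's test in either direction, and the values ranged from −0.89 (*Smyd1*) to 0.31 (*Mef2c*). For a list of this size, 0 is near the shares over all expressed genes, 2.14% higher and 2.57% lower. *Nkx2-5* measured 8.14, 8.23 and 8.32 at E10.5 and 8.19, 8.16 and 7.99 at E11.5, *Gata4* measured 0.05 and *Tbx5* 0.07. *Isl1*, which marks second heart field progenitors, measured 5.10, 5.07 and 5.26, and then 5.70, 6.25 and 5.37; its arrays did not overlap, and its 0.63 did not pass (limma adjusted p 0.24). None of the 16 expressed genes of the second heart field and outflow tract list passed.

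Membrane and calcium genes of excitation rose in part, where 2.14% of all expressed genes rose and 2.57% fell. Of 9 expressed genes of the conduction and excitability list, 2 rose and 0 fell, and 14 more were under 5 in both stages. *Kcnj5*, a potassium channel subunit, measured −0.76 and did not pass (limma adjusted p 0.084). *Kcna4*, a potassium channel of the transient outward current, measured 3.90, 3.65 and 4.07 at E10.5 and 4.86, 5.22 and 5.45 at E11.5 (2.47-fold, limma adjusted p 0.00027), and kept its call whichever array was left out. Its E10.5 mean was 3.87, so it counted as expressed through E11.5 alone. *Gja1*, the main gap junction protein of ventricular muscle, rose by 0.49, from 11.06, 11.00 and 11.02 to 11.37, 11.58 and 11.59 (limma adjusted p 0.048). Its other expressed probe sets measured 0.51, 0.04 and 0.44. Of 22 expressed calcium handling genes, 3 rose: *Casq2*, the calcium store protein of the sarcoplasmic reticulum (0.93), *Trdn*, triadin, its anchor (0.83), and *Itpr2*, an inositol trisphosphate receptor (0.72). With the hybridization covariate *Casq2* passed (1.19), and *Trdn* (0.54, limma adjusted p 0.078) and *Itpr2* (0.40, limma adjusted p 0.21) did not. The main pump, release channel and pump inhibitor, *Atp2a2*, *Ryr2* and *Pln*, measured −0.58, −0.36 and 0.35 and did not pass. The other expressed probe sets of *Pln* measured −0.30 and −0.12. *Gja1*, *Casq2*, *Trdn* and *Itpr2* each lost their call without E10.5 replicate 1.

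Among signalling genes, few members of any list passed, as over all expressed genes (2.14% higher and 2.57% lower). Of 24 expressed genes of the BMP and TGF-beta pathway, *Inhba* rose and *Bmp5* fell, and the cushion ligands *Bmp2* and *Tgfb2* measured 0.02 and 0.39. Of 22 expressed Wnt pathway genes, *Sfrp2* and *Tcf7l1*, a transcription factor of the pathway (0.54), rose, and *Rspo3*, which heightens Wnt signalling, fell (−0.94). *Tcf7l1* and *Rspo3* lost their call with the hybridization covariate (limma adjusted p 0.21 and 0.11). *Wnt5a*, *Wnt11* and *Wnt2* measured 0.36, −0.34 and −0.64, the last under 5 in both stages. Of 10 expressed retinoic acid genes, *Aldh1a1* fell, while *Aldh1a2*, the main enzyme of retinoic acid synthesis in the early heart, measured 0.45 (limma adjusted p 0.55). Of 14 expressed Notch pathway genes, 0 passed in limma's test in either direction, and *Notch1* and *Hey1* measured −0.09 and −0.32. *Snai2*, a transcription factor of the transition that fills the cushions with cells, rose by 0.56 (limma adjusted p 0.047), a call lost with the hybridization covariate (limma adjusted p 0.079) and without either of E10.5 replicates 1 and 2 or E11.5 replicates 2 and 3. *Sema3a*, a semaphorin that guides axons, fell by 0.66 (limma adjusted p 0.036) with E10.5 replicate 3, at 4.90, near the E11.5 arrays. Without E10.5 replicate 2 the value of *Sema3a* was −0.41, and the call was lost. *Ndrg1*, a stress-responsive gene on the hypoxia list, rose 2.61-fold (limma adjusted p 5.6e-05), whereas *Vegfa* went from 6.39, 6.44 and 7.04 to 7.35, 7.48 and 7.51 and did not pass (0.82, limma adjusted p 0.26).

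A few markers of other cell types passed, and their part in the results above was not tested. The shares over all expressed genes were 2.14% higher and 2.57% lower. Of 17 expressed epicardial genes, *Aldh1a1* fell, and *Wt1*, *Tbx18* and *Upk3b* measured −0.21, −0.16 and −0.28. Of 24 expressed endothelial and endocardial genes, *Aplnr*, the apelin receptor, rose (0.91, limma adjusted p 0.032; not passing with the hybridization covariate), and *Cdh5* and *Kdr* measured −0.06 and −0.23. Of 5 expressed smooth muscle genes, 1 rose and 1 fell. *Mylk*, myosin light chain kinase, rose 2.31-fold and kept its call whichever array was left out, and *Tagln*, transgelin, fell by 1.22 with E10.5 replicate 3, at 8.10, nearer to E11.5. The value of *Tagln* was −0.87 with the hybridization covariate and no longer passed (limma adjusted p 0.22), was −0.64 from E10.5 replicate 3 alone, and its call was lost in 4 of the 6 omissions of 1 array. *Myh11*, the defining marker, was under 5 in all 6 arrays. *Csf1r*, the receptor that marks macrophages, rose 2.22-fold from 4.39, 4.61 and 5.09 to 5.70, 5.88 and 5.96 (limma adjusted p 0.00072), but 20 of the 24 genes of that list were under 5, *Ptprc* and *C1qb* among them. The other expressed members, *Pf4*, *Lyz1* and *Lyz2*, measured −0.63, 0.18 and −0.07 and did not pass. Summed as the mean level of all 24, the list ran from 3.89 to 3.98 over the E10.5 arrays and from 4.06 to 4.12 over the E11.5 arrays. The liver list, with 0 of 12 genes above 5, also moved up without overlap, from 3.06 to 3.21 and then from 3.23 to 3.28. The shift of the macrophage list is thus not particular to it.

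Blood was present in all samples. The embryonic globins *Hbb-y*, *Hbb-bh1* and *Hba-x* measured 0.14, −0.54 and −0.35 and did not pass. *Hbb-b2*, an adult globin whose probes can also take up transcripts of its near copies, went from 4.75, 4.94 and 5.32 to 5.50, 5.77 and 6.01 (0.76, limma adjusted p 0.026), and the call was lost with the hybridization covariate. The tissue check found 0 of 12 liver genes above 5, which bears on the word liver in the labels' extraction text, and 1 of 12 neuronal, 3 of 10 neural crest or glial, 1 of 11 foregut, lung or epithelial, 1 of 8 skeletal muscle and 1 of 28 Hox genes above 5, with 0 of these passing. The immediate early genes split within the stages: *Fos* measured 9.53, 11.20 and 10.85 at E10.5 and 11.34, 11.49 and 9.10 at E11.5, so that replicate 1 of E10.5 and replicate 3 of E11.5 were low, and *Egr1* and *Jun* had the same pair of low arrays.

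The genes that moved at E11.5 can be followed in later stages, whose arrays do not enter the means of this step. Those arrays do share the model's variance estimate and the choice of probe set. Calls in the later steps are thus not independent of those at E11.5. Between E12.5 and E13.5, 1.2% of expressed genes were higher and 1.09% lower. Of the 208 genes higher at E11.5, all expressed there, 27 (13.0%) were higher again and 1 (0.481%) lower; the 27 made up 23.1% of all genes higher in that later step. Of the 250 genes lower at E11.5, 194 were expressed there, and 23 of them (11.9%) were lower again and 0 higher; the 23 made up 21.5% of all genes lower in that step. The controls rose in that step too, by 0.61 for the hybridization controls and 1.19 for the *Gapdh* difference. With the hybridization covariate in both steps, where the background was 0.399% higher and 0.153% lower, 10 of 157 (6.37%) were higher again and 3 of 41 (7.32%) lower again. The part of the controls in this resemblance was not tested.

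Between E19.5 and the young adult the pattern without covariate was the other way round. There 18.5% of expressed genes were higher and 29.7% lower. Of 200 expressed genes that were higher at E11.5, 89 (44.5%) were lower in the adult and 33 (16.5%) higher. Of 172 expressed genes that were lower at E11.5, 70 (40.7%) were higher in the adult and 16 (9.3%) lower. The 89 made up 2.94% of the genes lower in the adult, and the 70 made up 3.73% of those higher. In that step the hybridization controls rose by 1.01, while the *Gapdh* difference changed by −2.11, against 1.38 between E10.5 and E11.5. With the hybridization covariate in both steps, 28.5% of expressed genes were higher in the adult and 25.2% lower. Of 151 genes that were higher at E11.5, 53 (35.1%) were then lower in the adult and 44 (29.1%) higher. Their median log2 fold change was −0.03, against 0.02 over all expressed genes, so the reversal of the rises was weaker. Of 32 genes that were lower at E11.5, 18 (56.2%) were higher in the adult and 1 (3.12%) lower.

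Stage courses differed among the rising genes. Means are given with SD over 3 arrays. *Sfrp2* went from 3.39 (0.14) at E10.5 and 6.79 (0.51) at E11.5 to 8.95 (0.04) at E12.5, its highest stage, 8.69 (0.45) at E13.5, which differs from it by less than that SD, and 5.33 (0.74) in young adults. *Fbln5* reached 9.49 (0.03) at E12.5 and 9.64 (0.62) at E13.5, which differ by less than the SD of the latter. *Eln* went on to 8.74 (0.05) at E12.5 and was highest at E19.5, with 9.55 (0.60), which differs by less than its SD from 9.49 (0.67) at E13.5. *Col1a1* rose to 10.36 (0.15) at E15.5 and was at 6.70 (0.38) in young adults. *Nfix* reached 9.44 (0.13) at E13.5 and 10.15 (0.07) in young adults, its highest stage. *Inhba* and *Penk* were highest at E11.5 itself, with 7.85 (0.15) and 5.77 (0.79), but their E12.5 means of 7.78 (0.17) and 5.69 (0.30) lay within these SDs. The step from E11.5 to E12.5 uses the same E11.5 arrays; in it *Fbln5*, *Eln*, *Mgp* and *Lox* measured 2.10, 2.04, 1.84 and 1.40 and passed, and *Sfrp2* measured 2.15 and did not (limma adjusted p 0.13). Of the falling genes, *Trim71* was at 4.15 (0.04) by E12.5 and at most 4.19 in any later stage mean, and *Bmp5* went from 7.89 (0.06) at E10.5 to 6.86 (0.35) at E11.5, 5.98 (0.24) at E13.5 and 4.70 (0.18) at E19.5. *Mylpf* was at 5.11 (0.27) at E12.5 and 4.36 (0.20) at E16.5, its lowest stage.

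**Figure D5:**
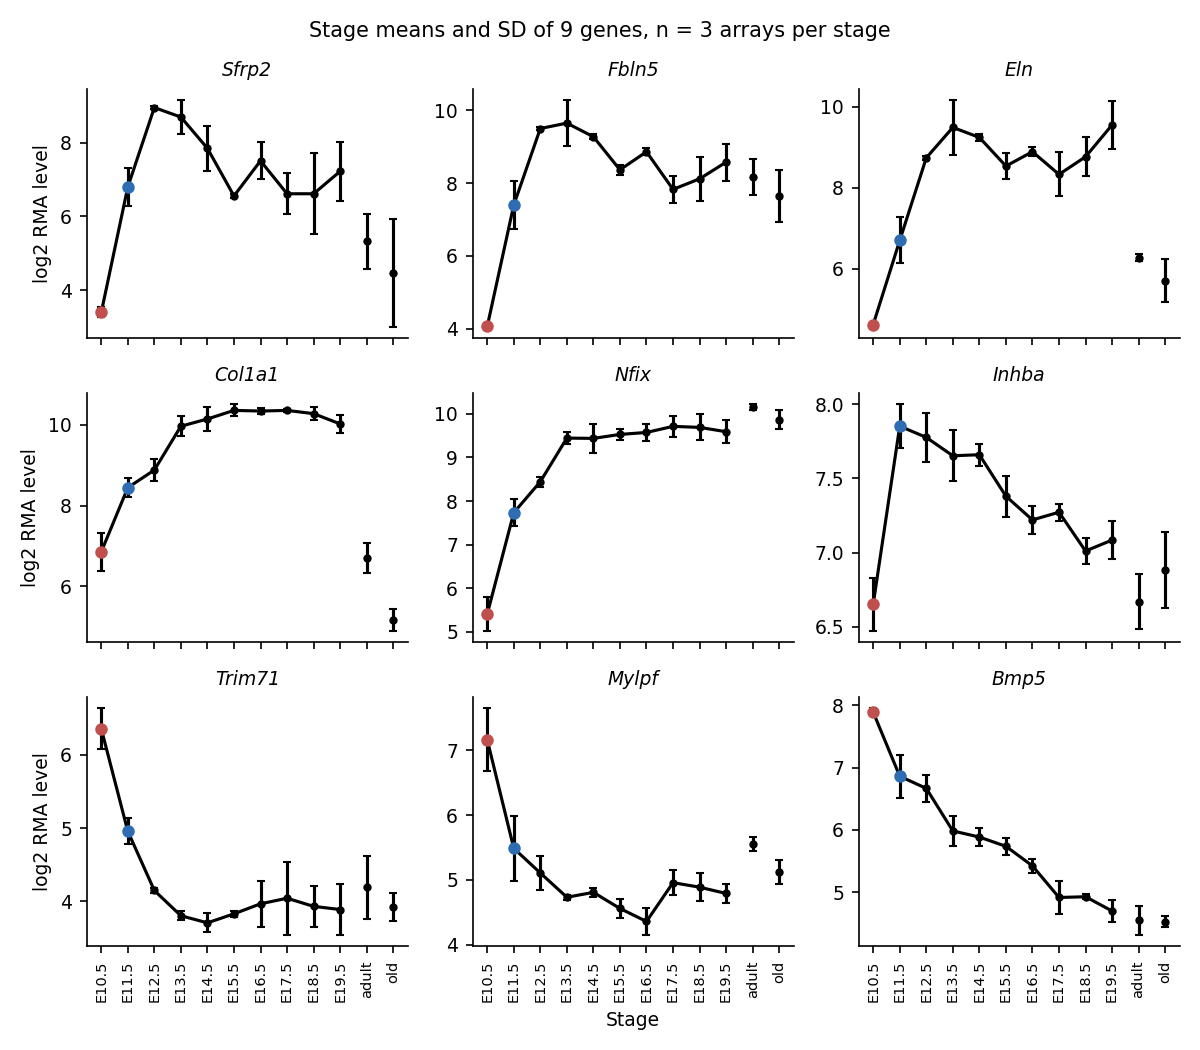
Mean log2 RMA level over 3 arrays per stage, with SD as error bars, of 9 genes over the 12 stages; E10.5 is marked red, E11.5 blue, and the 2 adult stages stand apart from the joined embryonic days. Sfrp2 rises from 3.39 to 8.95 by E12.5 and Inhba is highest at E11.5 (7.85), while Bmp5 falls from 7.89 to 4.70 by E19.5.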

How the data were processed

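Total RNA of whole hearts was hybridized to Affymetrix mouse whole-genome expression arrays. The authors deposited log2 values after robust multi-array average, which corrects background, equalizes the distributions of single probes between arrays and then summarizes probes. The submitters' processing notes name Affymetrix Expression Console and Partek 6.6, the study's methods R/Bioconductor. The depth of an array is not a count, and 3 arrays per stage limit the precision. Values were used as deposited. Symbols of 272 genes garbled in the file were restored through their gene IDs, and 6937 probe sets have no gene ID. Limma 3.58.1 in R 4.3.3 was fitted to 12 stage means over 36 arrays (24 residual degrees of freedom), without covariates, with Benjamini-Hochberg adjustment over 45101 probe sets, and was tested on simulated data. The expression limit of 5 was applied after the test.

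Named are the 12 highest and 12 lowest log2 fold changes among passing genes whose arrays do not overlap, the first 3 genes of each list, and up to 4 further passing members of each list. The members and lists were chosen with earlier results of these data known, so list counts stand without a test. A list gene whose symbol had no probe set in the annotation was not analysed here. Alternatives were the 6 arrays alone, a variance trend, other filters and limits, other scalings, covariates, a replicate block and leaving out each array.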

Additional observations from a re-analysis of the deposited data

Results flagged for a closer look

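For 10 of the named genes that passed, the log2 fold change from E10.5 to E11.5 differed from that between E12.5 and E13.5, a step on other arrays (limma interaction term, adjusted p under 0.05 over all probe sets). The difference between the steps was 3.77 for *Iigp1* (2.79 against −0.98, adjusted p 0.0014), 3.75 for *Penk* (2.17 against −1.58, adjusted p 7.6e-05), 3.66 for *Sfrp2* (3.40 against −0.26, adjusted p 0.034) and 3.18 for *Fbln5* (3.33 against 0.15, adjusted p 0.0013). It was 1.94 for *Dnm3os* (1.68 against −0.27), 1.63 for *Col9a3* (1.28 against −0.34), 1.61 for *Spint2* (1.93 against 0.32), 1.32 for *Inhba* (1.20 against −0.12) and 1.32 for *Nfix* (2.32 against 1.00). *Rrp15* differed by −1.08 (−1.29 against −0.21). Over all probe sets, 33 differed between the steps. Only *Penk* passed in both steps in opposite directions, among these 10 genes.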

How the results depend on the processing

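Counts of genes depended on the setting, starting from 241 higher and 463 lower. With the 6 arrays alone there were 97 and 29, and with the expression limit applied before the model 720 lower. Quantile renormalization gave 202 lower and the hybridization covariate 118 lower. The 3′/5′ covariate gave 25 and 2, and E10.5 replicate 3 alone 6 and 1; both were chosen after seeing the data. A mean above 6 left 307 lower, an absolute log2 fold change above 1 left 66 and 167, and an adjusted p under 0.01 left 74 and 64. With 1 array left out, the higher genes ranged from 54 to 652 and the lower from 19 to 1681. The highest counts were those without E10.5 replicate 3. At the study's limits, 3 higher and 0 lower genes became 5 higher with the hybridization covariate, and 0 with the 6 arrays alone, the replicate block, the 3′/5′ covariate or E10.5 replicate 3 alone. They ranged from 1 to 3 higher and from 0 to 2 lower with 1 array left out.

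With the replicate number as a block, the paired fit called 53 higher and 28 lower genes. The numbers do not pair the samples: deviations of same-numbered arrays from their stage means correlated at 0.25, −0.27 and 0.17.

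Settings for the later steps were added after seeing the data. From E12.5 to E13.5, 147 higher and 226 lower genes became 48 and 24 with the hybridization covariate and 7 and 6 with the 3′/5′ covariate. From E19.5 to the adult, 2372 higher and 3517 lower became 3694 higher with median centring, 3668 higher with the hybridization covariate, and 1197 and 1879 with the 3′/5′ covariate. The 33 probe sets that differed between steps became 12 with quantile renormalization and 50 with the hybridization covariate. The cause was not tested for any of these. Of 80 named genes that passed, none changed direction under any setting run; 46 kept their call with the hybridization covariate and 16 with the 3′/5′ covariate.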

Other observations

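Genes outside the lists above showed further falls, described here as values with no test of the group, since both groups were chosen after their values were seen. Of 18 genes of cholesterol synthesis, all expressed, 17 had a negative log2 fold change, 12 had all E11.5 arrays below E10.5, 3 fell (*Msmo1*, *Fdps* and *Ebp*) and 0 rose, with a median of −0.56. The shares over all expressed genes were 19.9% with all E11.5 arrays below E10.5 and 2.57% lower. *Hmgcs1*, an early enzyme of the pathway, measured 10.22, 10.31 and 10.54 at E10.5 and 10.06, 10.14 and 10.13 at E11.5, and did not pass (limma adjusted p 0.64). The median was −0.39 with the hybridization covariate and −0.43 from E10.5 replicate 3 alone.

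Of 33 genes of the chaperonin complexes, which fold newly made proteins, and of the proteasome, 31 were negative and 7 fell, with a median of −0.67. Among all expressed genes, 2.57% fell and the median was −0.07. *Hspd1*, the mitochondrial chaperonin, measured 10.29, 10.45 and 9.48 at E10.5 and 9.21, 8.83 and 8.90 at E11.5, with E10.5 replicate 3 between its fellows and E11.5. *Psmb3*, a proteasome subunit, measured 0.28, against −1.13 for *Psmb5*, and neither passed. With the hybridization covariate the median was −0.26 and 0 of the 33 passed, and from E10.5 replicate 3 alone it was −0.28.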
